A study of Mus musculus with 18 samples.

Results

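Ribosome footprints were set against RNA, gene by gene, in the epidermis of HrasG12V mouse embryos given an shRNA against Eif2b5. All libraries of that condition were used, 3 of footprints and 3 of RNA, which are 6 of the 18 libraries of the study. The question was which genes and which classes of genes carried many or few footprints for the amount of their RNA. The series compared this HrasG12V shEif2b5 condition with HrasG12V shScram, which carried a scrambled control shRNA, and with WT shScram, each with 3 footprint and 3 RNA libraries. Embryos were injected in utero at E9.5 and the epidermis was taken at E18.5. The strain label is FR-HrasG12V for both HrasG12V groups. The WT group was of a Luo/J strain with the reporter (ACTB-tdTomato,-EGFP) at the Gt(ROSA)26Sortm4 allele, so strain and genotype cannot be told apart. The genotype label of WT shScram footprint library 1 reads Rosa26 where the others read WT. Per the labels, the tissue was treated with cycloheximide throughout, freed from the dermis with dispase and dissociated with trypsin. The source is given as epidermal basal cells, and no sorting step is named. No label says which promoter drives HrasG12V, or whether replicates were different animals. The p-values therefore describe the spread among these libraries alone, which may be technical.

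Ribosome profiling sequences the short stretches of mRNA that translating ribosomes protect from nuclease. The footprints on a coding sequence, divided by the RNA reads over the same sequence, give a relative measure of how densely the mRNA is occupied by ribosomes. Cycloheximide stops elongating ribosomes on the message. Eif2b5 encodes eIF2B epsilon, which carries the nucleotide exchange activity of the eIF2B complex. The complex reloads the initiation factor eIF2 with GTP so that it can bring the initiator tRNA to the ribosome again. When active eIF2 is scarce most initiation slows, whereas mRNAs with certain upstream open reading frames, such as Atf4, are translated better. Hras encodes a small GTPase upstream of the ERK kinases, and G12V is an activating change.

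Levels are given in CPM, counts scaled to library size, and were scaled within each library kind over the 18 libraries where conditions are set side by side, as here, and over the 6 libraries elsewhere. Eif2b5 RNA, the target of the shRNA, was 135, 128 and 144 CPM in HrasG12V shEif2b5. It was 126, 387 and 143 CPM for HrasG12V shScram, and 158, 179 and 159 CPM for WT shScram. The knockdown libraries were below all WT libraries but overlapped HrasG12V shScram, where RNA library 2 stood apart. Eif2b5 footprints were 82.7, 78.8 and 95.2 CPM, against 91.5, 92.9 and 102 CPM for HrasG12V shScram, with 102, 106 and 102 CPM for WT shScram. Total counts per library were 4793575 to 4933298 for the HrasG12V shEif2b5 footprints and 2209327 to 2812627 for the RNA. Markers of basal keratinocytes (Krt5, Krt14, Krt15, Trp63, Itga6, Itgb4, Col17a1) summed to 13374 to 15098 CPM in footprints and 12867 to 14965 CPM in RNA. The spinous keratins Krt1 and Krt10, which mark cells above the basal layer, summed to 42369 to 55229 CPM in RNA, more than the basal markers. In footprints their sum ranged from 19546 to 62387 CPM. Footprint library 1 held 14107 CPM of Krt1 and 5439 CPM of Krt10 while libraries 2 and 3 held 39649 and 41296 CPM of Krt1 and 22738 and 20171 CPM of Krt10. Footprint library 1 thus stood apart for differentiation genes, and the values of such genes are given with and without it. The endothelial (1.82 to 3.78 CPM), skeletal muscle (1.03 to 6.90 CPM) and Merkel cell markers (5 to 8.22 CPM) were near 0 in both kinds of library. All 4 erythroid markers, which are globin genes, were at 0. How reads with several matches were counted is not given, so that 0 cannot show that blood cells were absent. In a wider erythroid list, 1 of 10 genes had enough counts to be tested.

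Of 20655 symbols in the count table, 11282 had enough counts to be tested. A gene was called when the adjusted p of the edgeR quasi-likelihood test of footprints against RNA was under 0.05. The ratio was scaled so that the typical gene lay near 0 (median log2 ratio 0.01), and a ratio above 0 therefore means more footprints for the RNA than the typical gene has. Footprints were called higher in 4030 genes (35.7%) and lower in 3959 (35.1%). With a change of at least 2-fold asked for as well, 2428 genes (21.5%) were higher and 2652 (23.5%) lower, and 552 were at least 4-fold higher and 920 at least 4-fold lower. The middle 90% of genes ran from -2.40 to 1.99 on the log2 scale, a 21-fold span, with a median standard error (SE) of 0.19. Across the 11282 genes, footprint and RNA levels were correlated with Pearson's r = 0.78 (log2 of CPM plus a pseudocount of 1), and ratios from 1 footprint and 1 RNA library were correlated with those from another pair at 0.91 to 0.92. Genes share libraries and are not replicates, so these coefficients are descriptions. The footprint and RNA libraries did not overlap in 73.8% of the tested genes, so such a gap in a gene named below is common. A ratio also holds every difference between the making of a footprint library and an RNA library, which cannot be told apart from ribosome occupancy within this comparison.

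**Figure D1:**
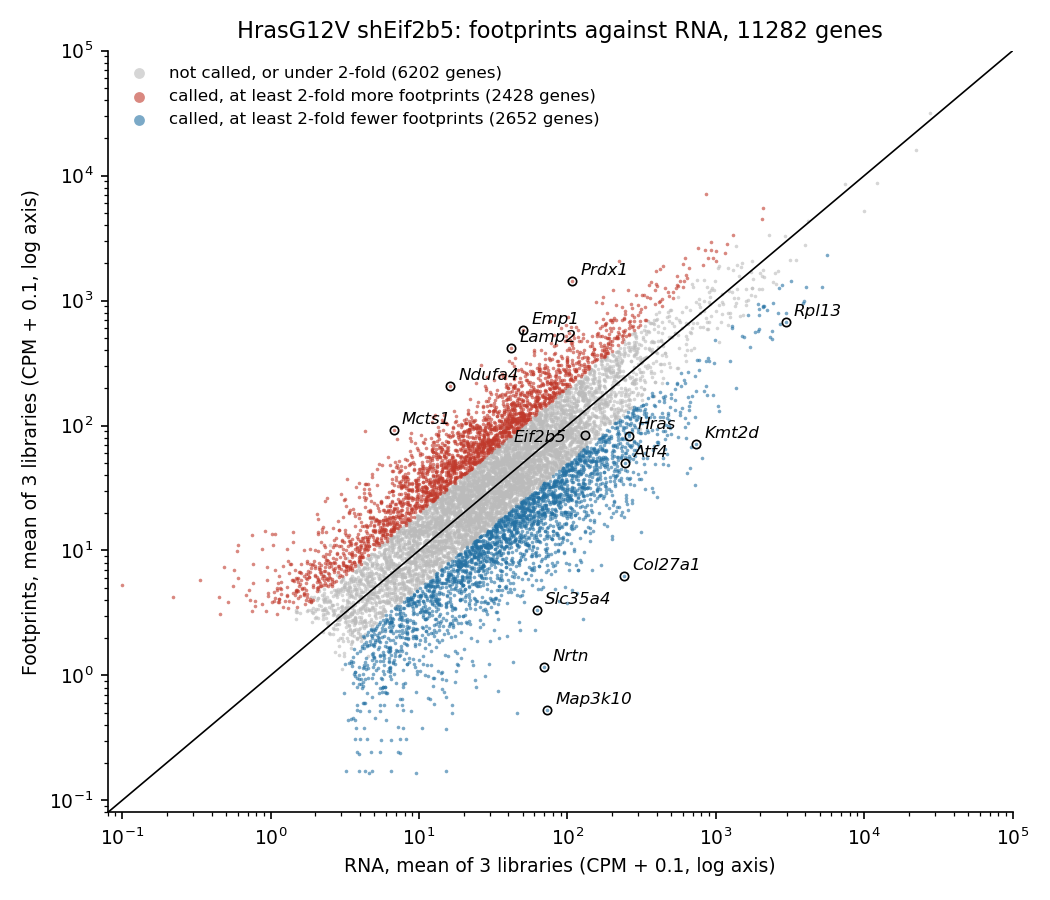
Mean footprint level against mean RNA level (CPM plus 0.1, both axes log) of the 11282 tested genes in HrasG12V shEif2b5, with the line of equal levels; coloured points are genes called with at least a 2-fold difference. Named genes lie far above the line (Mcts1, Ndufa4, Prdx1, Emp1, Lamp2) or below it (Map3k10, Nrtn, Col27a1, Kmt2d, Atf4, Hras).

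The 12 genes with the most footprints for their RNA were mixed in function and had short coding sequences, 219 to 993 bases except for Lamp2 with 1245 bases. The 12 highest and 12 lowest were taken from called genes that reached 20 CPM in footprints or RNA. Mcts1, which helps ribosomes to re-initiate, had 95, 77.7 and 103 CPM of footprints against 6.81, 8.57 and 4.54 CPM of RNA. That is a log2 ratio of 3.76 (SE 0.22, adjusted p = 9.4e-13), or 13.5-fold. Prdx1, a peroxide-reducing enzyme, had 1510, 1251 and 1541 CPM of footprints against 143, 113 and 66.3 CPM of RNA (3.73, SE 0.23). Ndufa4, a small subunit of the respiratory chain, had 201, 196 and 224 CPM against 15.8, 19.5 and 13.2 CPM (3.66, SE 0.17). In all 3 genes the lowest footprint library lay above the highest RNA library. Emp1, a membrane protein of epithelial cells, followed at 3.52 (SE 0.16), with 532, 581 and 637 CPM of footprints against 56.6, 55.5 and 39.1 CPM of RNA. The lysosomal membrane protein Lamp2 stood at 3.31 (SE 0.15). Others among the 12 highest were Gtf2a2 (a subunit of the general transcription factor TFIIA, 3.55), the ubiquitin-like Ubl5 (3.54), the secreted carrier Orm1 (3.43), Mettl5 (an rRNA methyltransferase, 3.43), Mpc1 (a subunit of the mitochondrial pyruvate carrier, 3.42) and the mucin Muc15 (3.26). Rnasek stood at 3.31, but its coding sequence is overlapped along 100% by another annotated gene, so its value is uncertain. Values of genes with processed copies in the genome, such as Prdx1 and ribosomal protein genes, depend on how reads with several matches were counted, which is not given in the sources used here.

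At the other end stood genes whose RNA was clearly present while footprints were close to none. Map3k10, a kinase of the JNK pathway, had 61.3, 63.7 and 94.0 CPM of RNA and 0.199, 0.649 and 0.431 CPM of footprints, which are 6 footprint reads against 564 RNA reads in the 3 libraries of each kind. Its log2 ratio was -7.32 (SE 0.33, adjusted p = 2.91e-14). Nrtn, a neurotrophic growth factor, had 72.4, 60.7 and 76.3 CPM of RNA against 0.796, 0.866 and 1.51 CPM of footprints (-6.01, SE 0.27). Col27a1, a fibrillar collagen, had 243, 188 and 288 CPM of RNA against 6.57, 5.63 and 6.25 CPM of footprints (-5.27, SE 0.19). In these 3 genes every footprint library was far below every RNA library. Smad6, an inhibitor of BMP signalling, had 0, 1.30 and 0.647 CPM of footprints against 45.5, 20.9 and 35 CPM of RNA (-5.66, SE 0.50). Rsc1a1 stood at -5.52, but its coding sequence lies entirely within that of Ddi2 on the same strand, so the value is uncertain. The remaining members of the 12 lowest were Gpr153 (-5.02), Arhgap33 (-4.87), Mesdc1 (-4.77), the glutamate receptor subunit Grik5 (-4.76), the LIM protein Wtip (-4.72), the GATA cofactor Zfpm1 (-4.70) and Nyap1 (-4.67). Of the 12, the genes Nrtn, Grik5 and Nyap1 are best known from the nervous system.

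**Figure D2:**
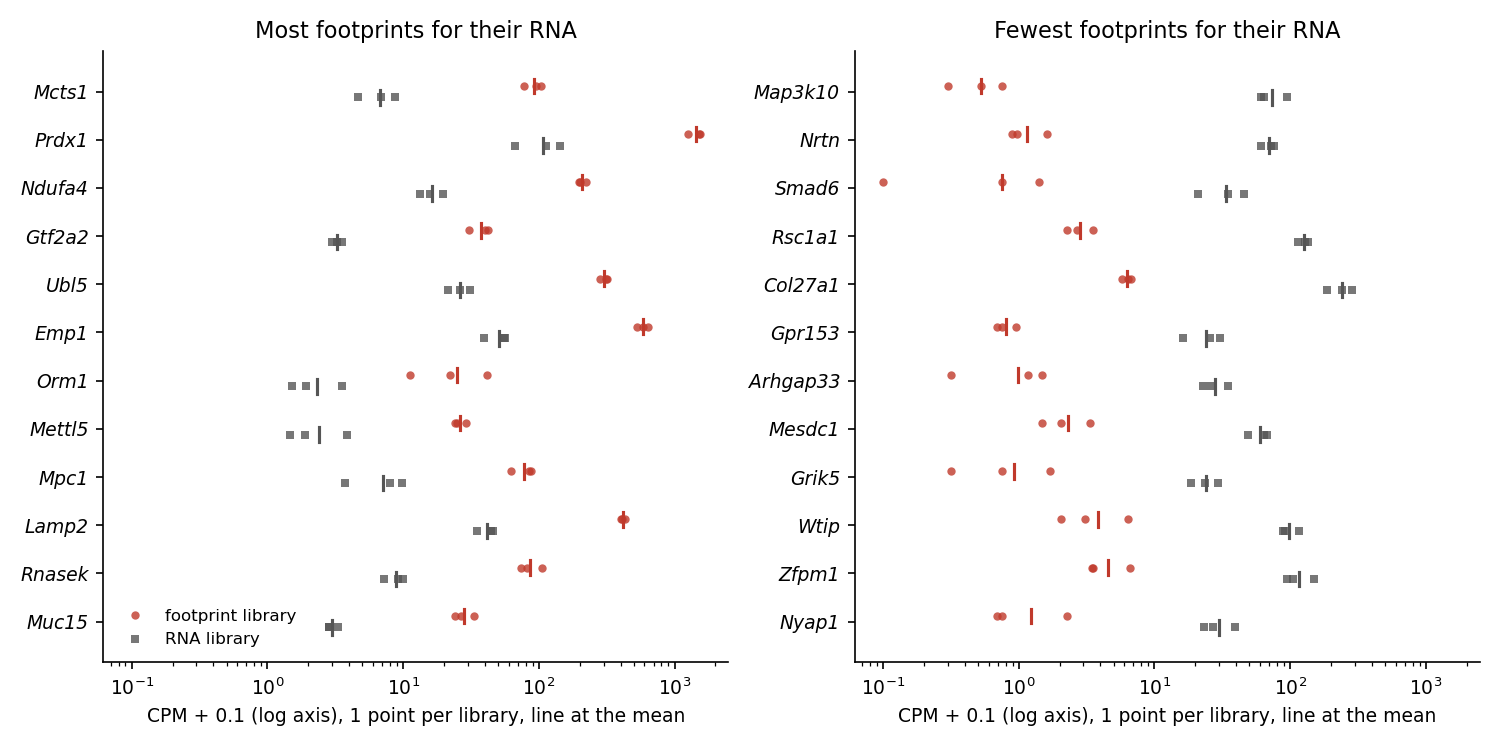
Footprint (circles) and RNA (squares) levels of the 12 genes with the highest and the 12 with the lowest log2 ratio (called genes reaching 20 CPM in footprints or RNA), 1 point per library, lines at the means (CPM plus 0.1, log axis). In all 24 genes, which were picked for their extreme ratios, the footprint and RNA libraries do not overlap, against 73.8% of all tested genes. Smad6 has 1 footprint library at 0.

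The opening bases of the coding sequences of 1 gene from each end show how far base composition can differ. Nrtn has the most GC-rich coding sequence of the 12 lowest and Mcts1 is the highest gene. The sequences are from GENCODE on mm10, with G and C in capitals. Mcts1 lies on the plus strand of chromosome X, and the stretch below runs from chrX:38600768-38601977 across an intron. Nrtn lies on the minus strand at chr17:56752418-56752477.
Mcts1: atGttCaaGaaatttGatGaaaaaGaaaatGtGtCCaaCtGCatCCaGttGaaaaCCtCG
Nrtn: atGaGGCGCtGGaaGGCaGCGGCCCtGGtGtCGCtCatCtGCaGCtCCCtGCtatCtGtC
The stretch of Mcts1 holds 21 G or C in 60 bases and that of Nrtn holds 38. Over the whole coding sequence GC was 36.1% in Mcts1 and 72.3% in Nrtn. Among the 12 highest genes it ran from 36.1% to 52.4% (Rnasek) and among the 12 lowest from 51.4% (Rsc1a1) to 72.3%, so the ranges overlap. The ends of that overlap are Rnasek and Rsc1a1, whose ratios are uncertain because another annotated gene covers their coding sequence.

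Across genes, the ratio was lower the higher the GC of the coding sequence. Genes were put in 10 bins of equal size. In the bin with the lowest coding GC (34.4% to 44.5%) the median log2 ratio was 0.97, with 48.6% of genes called at least 2-fold higher and 3.21% at least 2-fold lower. In the bin with the highest GC (60.6% to 77.9%) the median was -1.50, with 1.42% higher and 68.1% lower. Spearman's rho between coding GC and the ratio was -0.55 over 11227 genes. Coding length went the same way, with a median of 0.83 in the shortest bin (75 to 537 bases) and -0.86 in the longest (from 3531 bases), and rho = -0.35. Length of the 5′ leader was weakly related (rho = -0.15, 11022 genes). All 3 footprint libraries showed the relation with GC against each RNA library, with rho from -0.47 to -0.58.

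The same gradients were present in the other conditions, with values given here side by side and not tested. The medians of gene lists are therefore given a second time from a fit in which the trend with coding GC and length had been taken out, called the GC and length offset. That offset lowered the count of genes called with at least 2-fold from 5080 to 2920. In WT shScram, medians ran from 0.86 in the lowest GC bin to -1.33 in the highest, and in HrasG12V shScram from 0.52 to -1.13. RNA libraries 1 and 3 of HrasG12V shScram, with 5214473 and 4310239 counts, had the weakest relation (rho from -0.35 to -0.41). Its RNA library 2, with 1771365 counts, gave -0.51 to -0.53. RNA library 3 of WT shScram, the deepest with 5505386 counts, gave -0.43 to -0.52. A link between depth and this relation was not tested. With only RNA library 2, the HrasG12V shScram medians were 0.79 and -1.45, close to those of HrasG12V shEif2b5.

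**Figure D3:**
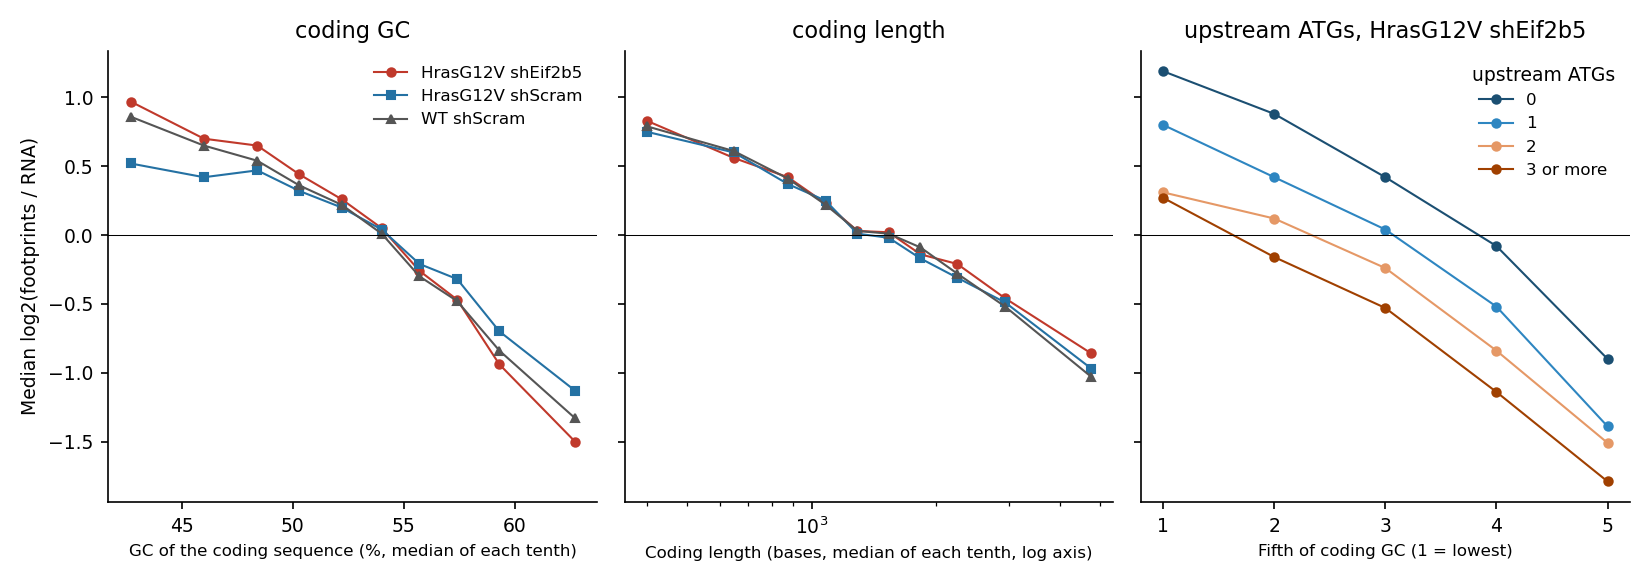
Median log2 ratio of footprints to RNA in 10 bins of coding GC (left) and coding length (middle, log axis) in the 3 conditions, and by number of upstream ATGs within 5 bins of coding GC in HrasG12V shEif2b5 (right). The ratio is lower in the highest than in the lowest bins of GC and length in all 3 conditions, and at each GC level genes with 3 or more upstream ATGs lie 0.90 to 1.07 below genes with none.

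Genes whose 5′ leader holds ATGs ahead of the start codon had fewer footprints on the coding sequence. An upstream ATG can capture scanning ribosomes and so reduce initiation at the main start. With 0 upstream ATGs the median log2 ratio was 0.34 (5561 genes), with 1 it was -0.11 (2527 genes), with 2 it was -0.40 (1152 genes) and with 3 or more -0.61 (1782 genes). The same order was found within each of 5 bins of coding GC, where genes with 3 or more were 0.90 to 1.07 below genes with none on the log2 scale. Within 5 bins of leader length the gap was 0.84 to 1.19, although the bin of shortest leaders held only 4 genes with 3 or more. Once the trend with GC and length had been removed, medians were 0.25, -0.07, -0.31 and -0.51 in the same order.

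Atf4 and Atf5, transcription factors of the stress response that eIF2 controls, are the textbook cases and are shown with each upstream ATG of the annotated leader and the main start in capitals (GENCODE, mm10, 9 bases before and 7 after). Atf4 lies on the plus strand of chromosome 15, with its first upstream ATG at chr15:80255294-80255312, the second at chr15:80255573-80255591, the third across an intron at chr15:80255672-80256211 and the main start at chr15:80256290-80256308. Atf5 lies on the minus strand of chromosome 7, with windows at chr7:44816528-44816546, at chr7:44815278-44816415 (across an intron) and, for the main start, at chr7:44815157-44815175.
Atf4 upstream 1: ttttctctcATGgggcctt
Atf4 upstream 2: gcggccaccATGgcgtatt
Atf4 upstream 3: gcctaagccATGgcgctct
Atf4 main start: ccccacaacATGaccgaga
Atf5 upstream 1: gcccgcgcaATGgctctgt
Atf5 upstream 2: ttcgccgccATGgagtcct
Atf5 main start: gtcacagccATGtcactcc
In both genes the reading frame of the last upstream ATG runs past the main start, with 59 codons in Atf4 and 58 in Atf5 before its stop. Atf4 footprints on the coding sequence were 44.8, 61.7 and 43.6 CPM against 224, 266 and 248 CPM of RNA. The log2 ratio was -2.30 (SE 0.15, adjusted p = 7.46e-12), 4.92-fold fewer than for the typical gene, and the footprint libraries lay far below the RNA libraries. Atf5 had 9.36, 13.4 and 12.3 CPM of footprints against 114, 121 and 193 CPM of RNA (-3.60, SE 0.22).

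Among 18 uORF-controlled mRNAs of the eIF2 response, 10 were called lower, all by at least 2-fold, and 4 higher, with a median of -1.16 (-0.69 with the GC and length offset), against 35.1% and 35.7% of all genes. Slc35a4, a Golgi sugar transporter gene whose leader holds 12 upstream ATGs, had 3.58, 3.03 and 3.02 CPM of footprints against 60.9, 62.7 and 63.1 CPM of RNA (-4.26, SE 0.21). The phosphatase subunits that reverse eIF2 phosphorylation were also low, Ppp1r15a at -4.11 (SE 0.51) and Ppp1r15b at -1.77 (SE 0.15). Cebpb (-2.79), Cebpa (-2.21) and Ddit3 (-2.10), all transcription factors, were lower as well, although with the offset Cebpb stood at 0.01 and Cebpa at 0.54. In contrast, the amino acid transporter Slc7a1 (1.25) and the proteasome-bound deubiquitinase Uchl5 (2.04), whose annotated leader holds 0 upstream ATGs, were higher. The targets that ATF4 switches on had a median of 0.38 (0.47 with the offset), with 12 of 28 called higher and 3 lower. At their ends stood Slc38a2, an amino acid transporter, with 756, 658 and 697 CPM of footprints against 227, 244 and 167 CPM of RNA (1.72), and the stress genes Sesn2 (-1.36) and Ddit4 (-1.12). The cystine transporter Slc7a11 had uneven footprints (15.1, 37 and 64.3 CPM) and was not called (1.64, adjusted p = 0.0639), but was without footprint library 1 (2.04) or 3 (1.07).

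Within the eIF2 and eIF2B complexes themselves, 6 of 9 subunits were called higher and 1 lower, with a median of 1.28 (0.38 with the offset). The lower one was the targeted Eif2b5, at -0.65 (SE 0.13, adjusted p = 0.000173, and -0.64 and not called in a model of all 18 libraries), with 81.8, 76.2 and 92.5 CPM of footprints against 130, 124 and 139 CPM of RNA. The regulatory subunit Eif2b1 (1.65) and the other catalytic-arm subunit Eif2b3 (1.92) were higher, whereas Eif2b4 stood at -0.01 and Eif2b2 at 0.33, neither called, although Eif2b2 was called higher without RNA library 1 or footprint library 3 (0.40 each). The eIF2 subunits Eif2s1 (2.27), Eif2s3x (1.30) and Eif2s2 (0.62) were all higher. Of 38 other initiation factors, 21 were higher and 10 lower, with a median of 0.52 that was 0.05 with the offset. Eif4g2, an eIF4G relative, was the lowest of those with at least 20 CPM, with 556, 442 and 569 CPM of footprints against 1391, 1605 and 1482 CPM of RNA (-1.52), followed by Eif4g3 (-1.34). Eif1, which guards start codon choice, stood at 2.19. Cytosolic tRNA synthetases were called higher in 15 of 22 genes and lower in 1, Vars (-0.83), with a median of 0.57 (0.63 with the offset). The list of elongation and release factors was split, 7 higher and 6 lower of 16 (median -0.02, 0.12 with the offset). Eef2 stood at -1.27 (2114, 2557 and 2303 CPM of footprints against 5048, 5626 and 6116 CPM of RNA). Eef1e1, in the list but not itself an elongation or release factor, stood at 1.61.

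Genes for cytosolic ribosomal proteins had few footprints for their RNA. Of 80 tested, 49 were called lower and 14 higher, with a median of -0.58. Their coding sequences are short, a feature that went with high ratios elsewhere, and with the GC and length offset the median was -1.46, the lowest of the 52 lists with at least 3 tested genes. Rps2 had 476, 505 and 542 CPM of footprints against 2068, 2264 and 2618 CPM of RNA (-2.19, SE 0.14), and Rpl13 619, 693 and 706 CPM against 2960, 2782 and 3104 CPM (-2.13, SE 0.14). At the other end were Rpl39 (2.03) and the stress-linked paralogue Rps27l (2.07). These mRNAs belong to the TOP class, which begins at the cap with a C followed by a run of pyrimidines and whose translation is set by mTOR signalling. RefSeq start sites (GRCm38.p6) held such a run, of at least 6 bases of C or T beginning with C between 3 bases before and 3 after the annotated start, in 23 of 59 matched ribosomal protein genes (39%) and in 8.71% of all 16095 symbols with a start. Ratios of the 23 genes with the run went from -2.04 (Rps23) to 0.70 (Rpl22l1). Starts of 4 of them, from low to near 0 in ratio, are printed with the run in capitals.
Rpl13a (chr7:45128731-45128748, minus strand): caagaCCTCCTCCTTTCC
Fau (chr19:6057944-6057961, plus strand): CTTCTTCCTCTTTCTTga
Rps24 (chr14:24490675-24490692, plus strand): tCCTTCCTTgcgcgttga
Rps6 (chr4:86857353-86857370, minus strand): ggCCTCTTTTTCgtgacg
Rpl13a stood at -1.72, Fau at -1.34 and Rps24 at -0.71, all called lower, and Rps6 at -0.26 (adjusted p = 0.0917), which was called lower without RNA library 1 (-0.36). The median was -0.57 for ribosomal protein genes with the run and -0.48 for those without it, and over all tested genes -0.07 with it and 0.01 without. The annotated start need not be the one used in skin. Other TOP mRNAs were split, 10 higher and 11 lower of 25 (median 0.07, -0.45 with the offset). The poly(A)-binding protein Pabpc1 (-1.73) and the ribosome biogenesis factor Gltscr2 (-2.42) were low, and the nucleolar chaperone Npm1 (2.09) and Btf3 (1.76) were high.

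Nuclear genes for the mitochondrial respiratory chain were the opposite case. Of 77 tested, 68 were called higher, 50 of them by at least 2-fold, and 3 lower, with a median of 1.34 (0.86 with the offset). The median over single library pairs ranged from 1.27 to 1.42. Uqcrb, a small subunit of complex III, had 197, 198 and 255 CPM of footprints against 28.3, 22.3 and 21.8 CPM of RNA (3.16, SE 0.17). The members called lower were Cyc1 (-0.79), Ndufa13 (-0.61) and Cox6a1 (-0.41), the last of which was not called without RNA library 3 (-0.30) or footprint library 1 (-0.31). Mitochondrial ribosomal proteins went the same way, with 52 of 77 higher and 5 lower (median 0.80, 0.37 with the offset), in contrast to their cytosolic counterparts of similar short length. Mrps18c stood at 2.87 and Mrpl22 at 2.86, and Mrps26 at -1.44. In the list of mitochondrial import and chaperones, 18 of 28 were higher and 4 lower, but its median of 0.78 became -0.07 with the offset. Its highest gene was the import channel subunit Tomm7 (2.64), and its lowest was the import receptor Tomm22 (-1.77), with 59.5, 64.3 and 80.0 CPM of footprints against 239, 187 and 271 CPM of RNA.

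No proteasome subunit was called lower, and 31 of 36 were called higher, 26 by at least 2-fold (median 1.28, 0.82 with the offset). Psma3, of the core particle, had 377, 297 and 369 CPM of footprints against 43.3, 48.7 and 40.4 CPM of RNA (2.97, SE 0.15). Psmd10 stood at 3.04, and Psmd3 (-0.20) and Psmd9 (-0.01) were not called. Cytosolic chaperones were higher in 22 of 27 genes and lower in 2 (median 1.21, 0.53 with the offset). Stip1, the co-chaperone that links HSP70 and HSP90, stood at 1.97. The heat-inducible Hspa1b was low (-2.55, SE 0.36), with 8.76, 27.3 and 21.8 CPM of footprints against 122, 93.2 and 122 CPM of RNA. ER chaperones were higher in 14 of 23 genes and lower in 4 (median 0.67, 0.57 with the offset), and the highest ratio of the list was 3.10. Among members with at least 20 CPM, Hsp90b1 (2.13) and Pdia3 (1.91) were the highest. The unfolded protein response factor Xbp1 (-0.88) and Edem1 (-1.61) were low. In SCF and other cullin ligases, 13 of 23 were higher and 3 lower, with a median of 0.65 that was 0.09 with the offset. The values ran apart, with Skp1a (2.21) and Cul2 (2.26) against Fbxw7 (-1.57). Fbxo32, an F-box gene, had low levels, 17.5, 15.6 and 9.06 CPM of footprints against 7.88, 11.3 and 6.81 CPM of RNA, and was called narrowly (0.68, SE 0.29, adjusted p = 0.0433) although its libraries overlapped. It was not called without RNA library 1 or 3 or footprint library 1 or 2 (0.50 to 0.61). Genes of the vacuolar ATPase and lysosome were higher in 31 of 33 and lower in 1, Atp6v0a2 (-1.29), with a median of 1.21 (0.79 with the offset). COPI, COPII and Golgi coat genes were higher in 16 of 25 and lower in 6 (median 0.84, 0.72 with the offset), with Sar1a (2.42) against the long golgin Golga4 (-1.85).

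Of 9 mRNAs with iron response elements, 3 were called higher and 2 lower (median 0.32, 0.62 with the offset). Ferritin and transferrin receptor carry iron response elements, which block ribosome entry in the ferritin leaders and protect the receptor mRNA from decay when iron is low. Ftl1 had 107, 90.9 and 95.5 CPM of footprints against 529, 552 and 778 CPM of RNA (-2.66, SE 0.16), and Fth1 stood at -0.94 (-2.10 with the offset). Tfrc had 178, 147 and 184 CPM of footprints against 35.5, 42.5 and 30.0 CPM of RNA (2.23, SE 0.16). The ferritin footprint libraries were all below, and those of Tfrc all above, the RNA libraries. Footprint and RNA libraries were also without overlap in 73.8% of all tested genes. Among polyamine and antizyme genes, 6 of 9 were lower and 0 higher (median -0.52, -1.13 with the offset). Smox, spermine oxidase, stood at -2.18 and Oaz1, whose protein needs a ribosomal frameshift, at -1.47. Selenoproteins, which decode UGA as selenocysteine, were higher in 7 and lower in 4 of 17 (median -0.09, -0.37 with the offset), from Selk (2.84) to Sephs2 (-1.97).

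Of 33 chromatin remodellers and histone methyltransferases, 28 were called lower, 20 by at least 2-fold, and 1 higher, Smarca5 (0.42), which was not called without RNA library 3 or footprint library 1 (0.36 and 0.27). The median of -1.29 was the lowest of all lists, and was -0.62 with the offset. Kmt2d, a histone H3 methyltransferase with a coding sequence of 16764 bases, had 71.7, 66.0 and 73.7 CPM of footprints against 766, 701 and 739 CPM of RNA (-3.38, SE 0.14), and Setd1b stood at -3.12. Immediate early and AP-1 genes were lower in 15 of 23 and higher in 1, Klf6 (0.41), with a median of -1.09. Klf6 was not called without RNA library 1 (0.31), RNA library 3 (0.36) or footprint library 3 (0.32). Their coding sequences are GC-rich (median 61.9%), and with the offset the median changed sign to 0.22. Jund had 41.4, 51.5 and 51.5 CPM of footprints against 454, 391 and 580 CPM of RNA (-3.30, SE 0.17, -0.80 with the offset), and 85.7% of its coding sequence is overlapped by another annotated gene. Myc was not called (-0.07, adjusted p = 0.682). Zinc-finger genes named Zfp were lower in 115 of 285 and higher in 62 (median -0.30, -0.46 with the offset). Their ratios ran from -3.35 (Zfp219) to 4.15, and Zfp207 (2.29) was the highest of those with at least 20 CPM.

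Spliceosome core proteins were higher in 27 of 33 and lower in 2 (median 0.99, 0.84 with the offset). Sf3b6 had 112, 122 and 118 CPM of footprints against 15, 11.3 and 10.4 CPM of RNA (3.25, SE 0.18). SR proteins and hnRNPs were higher in 24 of 32 (median 0.97, 0.58 with the offset), with Srsf10 (2.17) and Hnrnpk (2.08) at the top and Hnrnpul1 (-1.49) at the bottom. Among RNA polymerase II and Mediator genes, the small subunits Med21 (2.71) and Polr2k (2.29) were high and the large Med13l (-2.86) was low, and 27 of 42 were higher and 10 lower in all (median 0.72, 0.48 with the offset).

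Most cell cycle genes were higher. Of 32 genes of mitosis and G2/M, 26 were called higher and 3 lower (median 1.06, 0.65 with the offset). Cdk1, the mitotic kinase, had 305, 232 and 241 CPM of footprints against 41.9, 37.4 and 29.1 CPM of RNA (2.84, SE 0.16), and its partner Ccnb1 stood at 2.15. For DNA replication and S phase, 25 of 36 were higher and 2 lower, Pold1 (-0.73) and Cdt1 (-0.42), with a median of 0.86 (0.82 with the offset). Cdt1 was not called without RNA library 1 (-0.34) or footprint library 3 (-0.29). Replication-dependent histones, whose mRNAs lack poly(A) tails, were split, 15 higher and 21 lower of 56 (median -0.33). Near-identical copies share reads, and with the offset the median changed sign to 0.58, so no direction is given. Tubulins and actins were higher in 12 of 18 and lower in 0 (median 1.01, 0.91 with the offset), with Tuba1b at 1.73.

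Hras had 68.7, 106 and 74.6 CPM of footprints against 213, 272 and 297 CPM of RNA (-1.65, SE 0.17, adjusted p = 1.69e-08). Every footprint library of Hras lay below every RNA library, and 73.8% of all tested genes had no overlap either. Nras, a related GTPase, was higher (0.49, SE 0.14). The coding GC was 53.8% in Hras and 48.9% in Nras. With the GC and length offset Hras stood at -2.34 and Nras at -0.79, so Nras changed sign. Within the RAS-RAF-MEK-ERK cascade 13 of 24 were lower and 6 higher (median -0.42, -0.23 with the offset), with the receptor Erbb2 at -1.73. Genes that the pathway switches on (RAS-ERK output) were lower in 10 of 19 and higher in 5, with a median of -0.64 that became 0.55 with the offset. The feedback inhibitor Spred1 (-1.91) and the ERK phosphatase Dusp7 (-1.94) were low, and the transcription factor Etv5 (1.32) and Emp1 were high. Notch and Wnt components were lower in 18 of 28 (median -0.84, 0.14 with the offset), with Dvl1 at -2.81, Notch3 at -2.29 and the Wnt carrier Wls at 2.26. The mTOR pathway had as many members higher as lower, 7 each of 20 (median 0.05, 0.09 with the offset). Lamtor2 (2.34) and Rraga (1.97), parts of the amino acid sensor on the lysosome, were high, and Akt1s1 (-1.57) was low.

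Epidermal structural genes were mixed. Of 16 basal keratinocyte genes, 7 were higher and 4 lower (median 0.27, 1.15 with the offset). Trp63, the transcription factor of stratified epithelia, had 952, 829 and 650 CPM of footprints against 354, 299 and 271 CPM of RNA (1.39, SE 0.16). Itgb1 stood at 1.61, and the anchoring proteins Dst (-1.07) and Col17a1 (-0.74) were lower. Desmosomal and adherens junction genes were higher in 13 of 18 and lower in 2 (median 0.61, 0.80 with the offset), led by the cadherins Dsc2 (2.13) and Dsc3 (1.82), with Pkp4 at -1.86. Hemidesmosome, laminin and integrin genes had 12 higher and 9 lower of 27, and a median of 0.35 that was 1.29 with the offset. Collagen chains were lower in 12 of 23 and higher in 2, Col12a1 (1.32) and Col14a1 (1.23), and their median of -0.38 became 1.12 with the offset. Hair follicle genes were lower in 13 of 21 (median -0.81, -0.02 with the offset), with the Hedgehog effector Gli1 at -2.51 and the stem cell factor Lhx2 at -2.18.

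Differentiation genes depended on footprint library 1. Krt1 stood at 0.19 (SE 0.45) and Krt10 at -0.48 (SE 0.59), neither called. Without footprint library 1, Krt1 stood at 0.55 and was called higher, and Krt10 stood at -0.05. The spinous list had a median of -0.96 from footprint library 1 against 0.12 and 0.46 from libraries 2 and 3, each set against the mean RNA, and for the granular and cornified list these were -0.43, 0.70 and 0.27. Of 14 spinous genes 4 were called higher and 2 lower (median 0.22, 0.28 with the offset, and 0.43 without footprint library 1), and of 24 granular and cornified genes 5 and 5 (median 0.36, 0.69 with the offset, and 0.58 without that library). Dsp, the desmosomal plaque protein, had 2203, 6215 and 7126 CPM of footprints against 9616, 9791 and 10530 CPM of RNA (-0.95, adjusted p = 0.132). Without footprint library 1 the ratio of Dsp was -0.57 and called lower, and without footprint library 3 it was -1.24 and called lower. Krtdap, a small secreted protein of differentiating keratinocytes, was high in all 3 libraries, with 1726, 2193 and 2318 CPM of footprints against 312, 193 and 162 CPM of RNA (3.22, SE 0.23, and 3.35 without footprint library 1). Lor, the main cornified envelope protein, was low, with 420, 757 and 783 CPM against 1888, 2762 and 3518 CPM (-2.06, SE 0.31, and -1.81 without footprint library 1), but its coding GC is 72.9% and with the offset it stood at 1.15. Giant proteins were lower in 16 of 25 and higher in 2, with a median of -1.18 (0.09 with the offset). By footprint library that median was -1.57, -1.11 and -0.92, and without library 1 it was -1.01. Plec, a cytoskeletal linker, had 260, 555 and 652 CPM of footprints against 2364, 2028 and 2777 CPM of RNA (-2.29, SE 0.35, and -1.97 without footprint library 1).

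Metabolic enzymes came out mostly higher. In glycolysis, 10 of 16 were higher and 1 lower, Pfkl (-0.42, and -0.29 without footprint library 1, not called), with a median of 0.86 (0.91 with the offset), and Pgk1 stood at 1.63. In cholesterol synthesis, 15 of 23 were higher and 4 lower (median 0.49, 0.71 with the offset), from Idi1 (2.85), with 271, 212 and 263 CPM of footprints against 33.7, 40.1 and 29.1 CPM of RNA, to Mvk (-1.68) and the regulator Srebf2 (-1.58). Markers of melanocytes were present at 1307 to 1502 CPM of footprints and 412 to 532 CPM of RNA, and 10 of 11 melanocyte genes were called higher and 0 lower (median 1.41, 1.26 with the offset). Tyrp1, a pigment enzyme, had 140, 110 and 85.4 CPM of footprints against 24.0, 20.9 and 17.3 CPM of RNA (2.42, SE 0.19), while the transcription factor Sox10 stood at 0.03. Dermal fibroblast markers summed to 1122 to 1330 CPM of footprints and 454 to 546 CPM of RNA, and 4 of 8 were higher and 0 lower (median 0.95, 1.74 with the offset), with Dcn at 2.64 and Col1a2 at -0.36 (-0.57 and called lower without footprint library 3). In bulk libraries, fewer cells of a type and less RNA per cell cannot be told apart, and neither can the ratio of a few cells from that of the tissue.

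**Figure D4:**
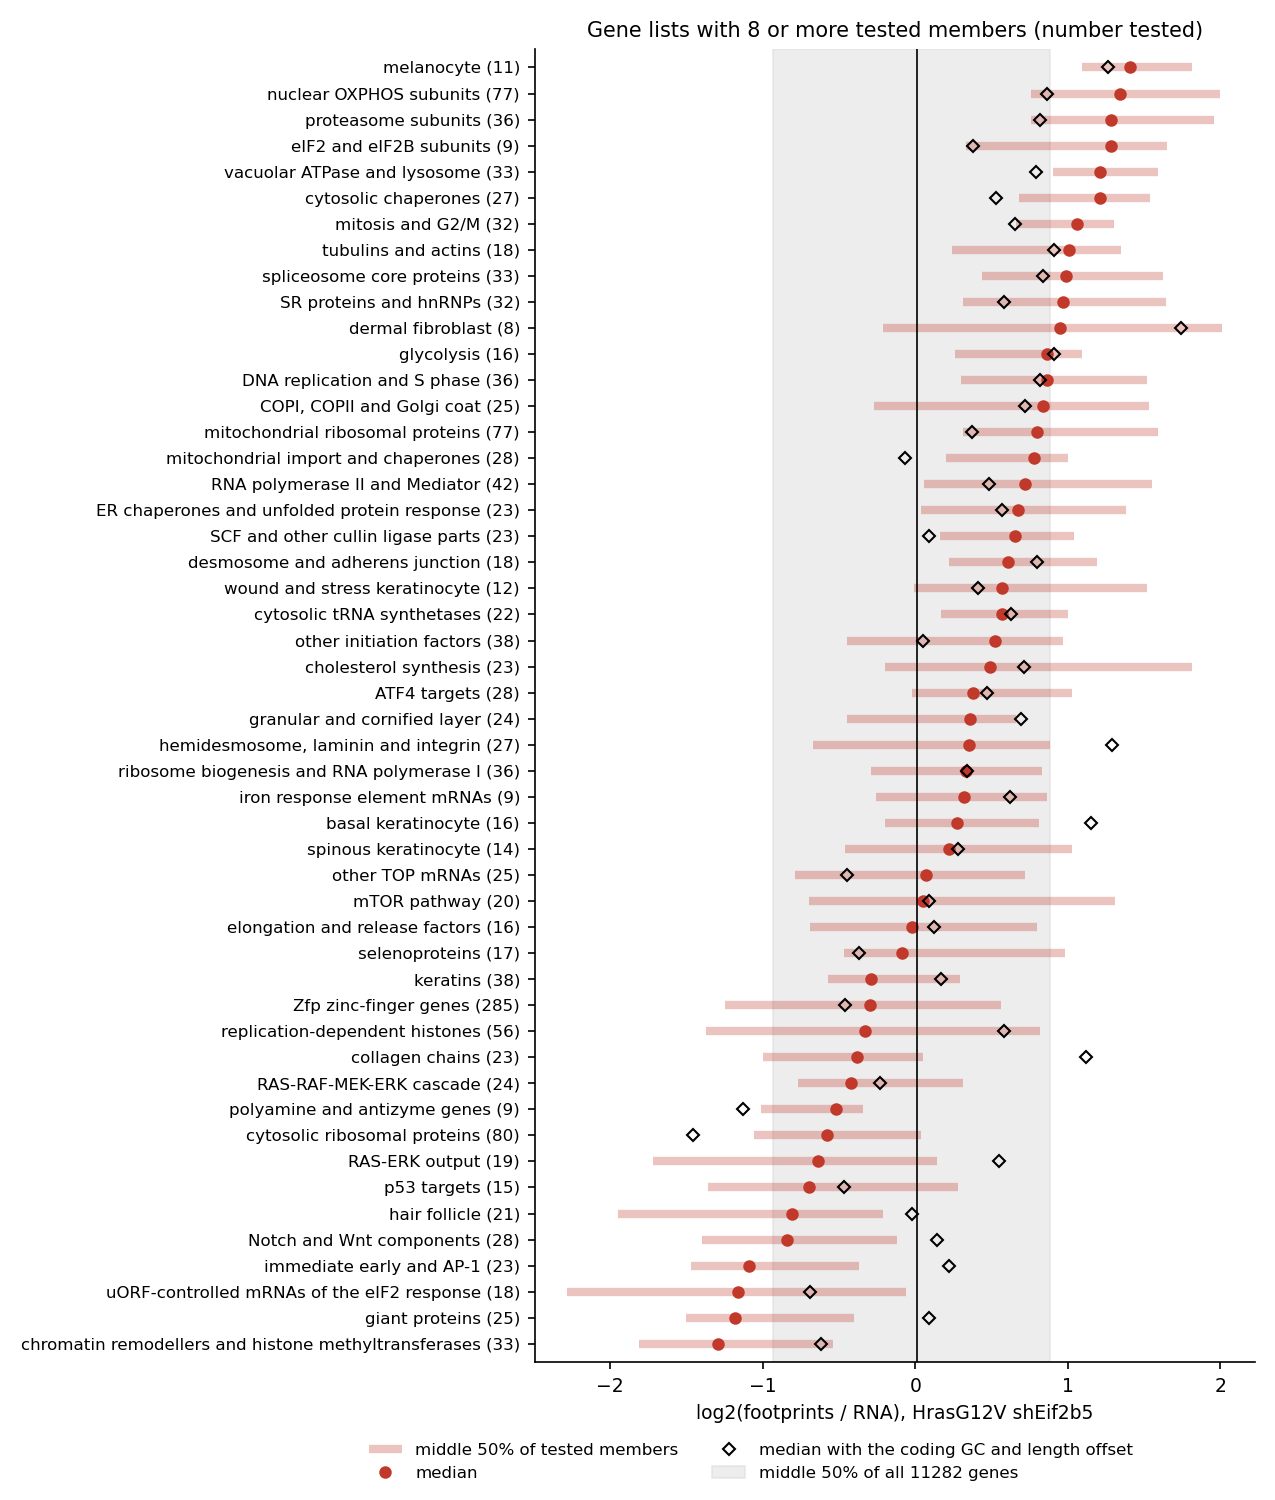
Median log2 ratio (filled circle), middle 50% of members (bar) and median with the coding GC and length offset (diamond) for gene lists with 8 or more tested members in HrasG12V shEif2b5; the grey band is the middle 50% of all 11282 genes. Respiratory chain, proteasome and lysosome genes stay right of 0 with the offset, cytosolic ribosomal proteins move from -0.58 to -1.46, and immediate early genes and collagens cross 0.

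The ratio itself was then compared between conditions, to see whether these patterns differ with the shRNA or the genotype. Across genes it was close to that of the other conditions, with Pearson's r = 0.93 against HrasG12V shScram (11146 genes) and 0.96 against WT shScram (11069 genes). Among the list medians, cytosolic ribosomal proteins had -0.58 in HrasG12V shEif2b5, -0.50 in HrasG12V shScram and -0.60 in WT shScram, the respiratory chain had 1.34, 1.08 and 1.27, and the uORF-controlled mRNAs had -1.16, -1.37 and -1.40. Medians of other lists lay further apart, in the same order of conditions. The spinous list had 0.22, -0.43 and -0.70, the granular and cornified list 0.36, -0.38 and -0.26, the hair follicle list -0.81, -0.09 and -0.54, and the wound and stress list 0.57, 0.25 and -0.16. No member of these 4 lists was called in either comparison below. Against HrasG12V shScram the ratio was called higher in 190 of 11990 genes (1.58%) and lower in 33 (0.275%), by the edgeR test of the interaction of condition and library kind. The called genes divided by base composition, with a median coding GC of 45.7% in the higher and 58.3% in the lower against 53.2% overall. Among the respiratory chain genes 8 of 77 were called higher, among proteasome subunits 5 of 36 and among lysosomal genes 3 of 33, with 0 lower in each. The count hung on single libraries. Of the HrasG12V shEif2b5 libraries, leaving out RNA 1, RNA 3 or footprint 3 left 48, 7 and 24 calls. Of the HrasG12V shScram libraries, leaving out RNA 1 or RNA 3 left 42 and 26 calls, leaving out footprint 1, 2 or 3 left 59, 30 and 16, and leaving out RNA 2 gave 1273, of which 740 were higher and 533 lower. Without both RNA 1 and RNA 3 of HrasG12V shScram, the ones with the weaker relation to GC, 2 genes were called, of which 1 was among the 223, and 943 genes had an unadjusted p under 0.05 in place of 2141. That fit leaves 1 RNA library in HrasG12V shScram, which is assumed to vary like the other groups, and rests on fewer samples.

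Lamp2, with the smallest p, had a difference of 1.64 (SE 0.22, adjusted p = 0.000642). Lamp2 footprints were 433, 420 and 423 CPM against 441, 469 and 405 CPM, which overlap. Lamp2 RNA was 46, 47 and 36.3 CPM against 156, 96.4 and 159 CPM, without overlap. In WT shScram the RNA of Lamp2 was 73.4, 64.7 and 72.2 CPM. Pex13, a peroxisomal import protein (1.58), the protease inhibitor Stfa3 (1.40) and Csnk2b, the regulatory subunit of casein kinase 2 (1.08), followed, with adjusted p from 0.00936 to 0.00966. Without both HrasG12V shScram libraries these 4 differences were 1.11, 1.20, 1.07 and 0.78, with adjusted p from 0.128 to 0.319. The genes called without them were the calcium-binding S100a11 (1.36, adjusted p = 0.0123) and Eif2b5 (1.36, adjusted p = 0.0029), the latter resting on the 387 CPM of the only RNA library left in that group. S100a11 rests on that library too, which held 531 CPM of its RNA against 440 and 284 CPM in RNA libraries 1 and 3. With all libraries the difference was 1.00 for S100a11, and for Eif2b5 it was 0.50 (SE 0.42, adjusted p = 0.564).

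Against WT shScram the ratio was called higher in 0 genes (0%) and lower in 0 (0%), with 666 at an unadjusted p under 0.05 and a smallest adjusted p of 0.736. DESeq2 called 3 genes. The smallest p were those of Dennd6a (-0.95), Sptan1 (1.08), Endou (1.03) and Epha2 (0.77), all with adjusted p = 0.736. Without footprint library 1 of HrasG12V shEif2b5, 18 genes were called, all higher. Among them were the plakin-family genes Eppk1 (1.81) and Dsp (1.82), and 11 of the 18 fell in the longest of the 10 bins of coding length. That count depends on the 1 transcript taken per gene, which for Ahnak, also among the 18, held 450 coding bases. Atf4 had a difference of 0.71 (SE 0.27, adjusted p = 0.865), with 45.3, 63.8 and 44.8 CPM of footprints against 16.2, 18 and 32.7 CPM in WT shScram and 232, 274 and 258 CPM of RNA against 183, 184 and 181 CPM. Against HrasG12V shScram, where Atf4 footprints were 49.1, 51.8 and 41.8 CPM, the difference was -0.02 (SE 0.26). For Hras it was -0.24 (SE 0.23) against HrasG12V shScram and -0.07 (SE 0.23) against WT shScram.

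**Figure D5:**
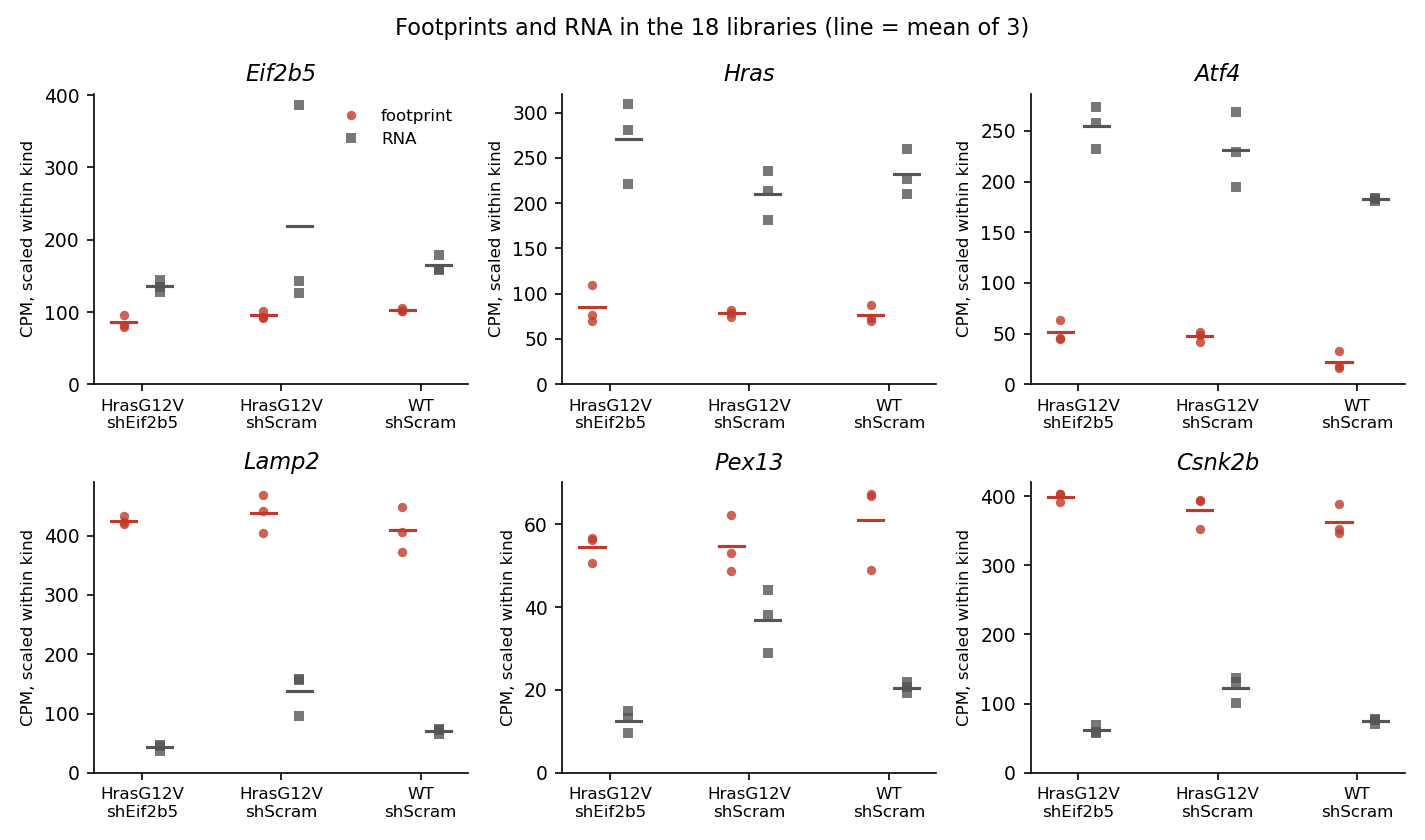
Footprint (circles) and RNA (squares) levels in CPM, scaled within each library kind, for 6 genes in the 18 libraries, with lines at the means of 3. Eif2b5 RNA is 387 CPM in 1 HrasG12V shScram library; for Lamp2 and Pex13 the footprints overlap between conditions while the RNA of HrasG12V shEif2b5 is below that of HrasG12V shScram.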

How the data were processed

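Ribosome profiling and RNA-seq libraries of mouse E18.5 epidermis were used, 3 of each kind for HrasG12V shEif2b5, HrasG12V shScram and WT shScram. The authors deposited a table of raw counts of reads on coding sequences per gene symbol. Bowtie, TopHat2 and HTSeq on mm10 are named in the submitters' processing notes, with no version, strand setting or handling of reads with several matches. Totals per library ran from 1771365 to 5505386 counts, and precision for a gene is limited by its own counts.

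Footprints were tested against RNA in the 6 HrasG12V shEif2b5 libraries with edgeR 4.0.16 (R 4.3.3), using filterByExpr, TMM factors over the 6 libraries, the quasi-likelihood F-test and Benjamini-Hochberg adjustment over all tested genes, with a threshold of 0.05. CPM values were computed from the counts with these factors. Differences of the ratio between conditions were the interaction of condition and kind over all 18 libraries, with TMM factors within each kind, which also scaled the CPM values compared between conditions, so that a library's value differs slightly between the scales. Coding length, GC and leaders came from GENCODE M21 (mm10), with 1 transcript per gene, and start sites from RefSeq (GRCm38.p6). The GC and length offset removed a smooth trend of the ratio on both features. In simulated data, 86.7% of genes changed 2-fold and 100% of genes changed 4-fold were recovered in the first comparison. In the second these were 44.3% and 91%. Each simulated gene had a single mean over all libraries used, scaled to depth, and every gene had the same spread. Differences between single libraries, as seen in the real data, were not simulated, so these shares do not give the power in the real data.

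Named genes were the 12 highest and 12 lowest called genes reaching 20 CPM, the 2 highest and 2 lowest of each list by the same minimum, 4 fixed genes (Hras, Eif2b5, Fbxo32, Atf4) and the 4 smallest p of each difference. Other genes were named after their values were seen. Members and lists were chosen with earlier results of these data known. Alternatives were DESeq2 1.42.0, limma 3.58.1 (voom), other scalings and filters, the offset, a replicate block, a limit of 4-fold and leaving out each library. Some members that this rule picks are not reported here.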

Additional observations from a re-analysis of the deposited data

Results flagged for a closer look

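For 22 of the genes named in the report, the ratio of footprints to RNA differed between HrasG12V shEif2b5 and HrasG12V shScram. The call was by edgeR's test of the interaction with adjusted p under 0.05, and each was higher in HrasG12V shEif2b5. Of all 223 called genes, 190 (85.2%) were higher. Many of the named genes were chosen for a high ratio or a small p in these same libraries. Their shared direction is therefore no separate result. Among the highest ratios the differences were 1.64 for Lamp2, 1.58 for Ndufa4, 1.14 for Emp1, 1.12 for Prdx1, 1.19 for Ubl5 and 1.24 for Rnasek. Mitochondrial genes were Mrpl22 with 1.25, Uqcrb with 1.06 and the import channel subunit Tomm7 with 1.01. Genes of protein turnover and transport were the proteasome subunit Psma3 with 1.07, the cullin Cul2 with 1.09, the COPII GTPase Sar1a with 0.80 and the peroxisomal import protein Pex13 with 1.58. Genes of signalling were Lamtor2 with 0.98 and Csnk2b with 1.08. The others were Med21 with 1.28, Rpl39 with 1.17, Selk with 1.16, Tuba1b with 0.95, Zfp207 with 0.89, Stfa3 with 1.40 and S100a11 with 1.00. When RNA libraries 1 and 3 of HrasG12V shScram were both left out, S100a11 was the only one of these called. S100a11 then rests on 531 CPM in the only RNA library left in that group, against 440 and 284 CPM in RNA libraries 1 and 3. The part of base composition or depth of RNA libraries 1 and 3 in the differences was not tested gene by gene.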

How the results depend on the processing

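The count of genes called for footprints against RNA stayed within 1.5 times of 7989 under every alternative run, and leaving out 1 library gave 7511 to 7770. Past 2-fold, leaving out 1 library gave 4976 to 5210, the GC and length offset 2920 (1237 higher and 1683 lower) and a limit of 4-fold 1472, which by construction asks for more. Under the other scalings of the 6 libraries the median of all genes was -0.04 to -0.01, against 0.01. With the offset, medians of 36 of 52 lists moved by more than the spread of the list median over single libraries, and 11 changed sign. Against HrasG12V shScram, DESeq2 called 396 genes, the fit with the replicate block 361 and the fit without RNA libraries 1 and 3 of HrasG12V shScram, an alternative chosen after seeing the data, 2, and leaving out 1 library gave 7 to 1273. Without its RNA library 2 the share of higher among the called genes was 58.1% in place of 85.2%. Against WT shScram, DESeq2 called 3 genes and leaving out 1 library gave 0 to 18. For all of these the cause was not tested.

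In HrasG12V shEif2b5, deviations of footprint and RNA libraries with the same number were correlated at 0.18, 0.00 and 0.11 over 5557 genes. They were correlated at 0.21, -0.02 and 0.17 in HrasG12V shScram (5763 genes) and at 0.12, 0.37 and 0.29 in WT shScram (5743 genes). Libraries with unlike numbers were correlated at -0.16 to 0.09 in HrasG12V shEif2b5, -0.26 to 0.06 in HrasG12V shScram and -0.33 to 0.03 in WT shScram. Not every pair with the same number was over 0.1, so the numbers were not taken as pairs, although each of the 3 in WT shScram was. The fit with the replicate block called 8099 genes for footprints against RNA.

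With the GC and length offset the log2 ratio changed sign in these genes, and the cause was not tested. Smarca5 came to -0.02, Klf6 to -0.33, Nras to -0.79 and Eif2s2 to -0.86. Turning positive were Cebpb (0.01), Notch3 (0.03), Akt1s1 (0.10), Dst (0.12), Dsp (0.16), Psmd9 (0.16), Eif2b4 (0.23), Krt10 (0.28), Plec (0.31), Psmd3 (0.38), Cox6a1 (0.44), Cebpa (0.54), Pfkl (0.55), Myc (0.57), Vars (0.94), Col17a1 (1.09), Pold1 (1.11), Lor (1.15), Cdt1 (1.26) and Col1a2 (1.40). Genes near 0 also changed sign under other settings. Sox10 was -0.03 with TMM within each kind and -0.02 with a minimum of 10 CPM, and Psmd9 was 0.03 and Eif2b4 0.04 without a low-count filter. Leaving out 1 library gave -0.12 to 0.20 for Sox10, -0.08 to 0.12 for Psmd9, -0.10 to 0.11 for Eif2b4, -0.21 to 0.01 for Myc and -0.05 to 0.55 for Krt1. For the difference against HrasG12V shScram it gave -0.16 to 0.79 for Eif2b5 and -0.21 to 0.08 for Atf4, and against WT shScram -0.29 to 0.06 for Hras. Genes with few counts limit what can be seen, and p-values cover only these libraries.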

Other observations

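Gene families that share a symbol stem were picked after the data were seen and are described for HrasG12V shEif2b5, where 35.7% of all tested genes were called higher and 35.1% lower. Of 32 tested Ankrd genes, which encode ankyrin repeat proteins, 20 were called lower and 3 higher, with a median log2 ratio of -1.37 (-1.21 with the GC and length offset). Zdhhc genes, the palmitoyl transferases, were lower in 11 and higher in 5 of 19 (median -1.07, -0.58 with the offset), and Zbtb transcription factors were lower in 24 and higher in 4 of 38 (median -0.79, -0.49 with the offset). Genes with the stem Cd, which include cell surface antigens, were higher in 20 and lower in 4 of 28 (median 1.17, 0.63 with the offset). Sec genes of protein secretion were higher in 18 and lower in 4 of 23 (median 0.81, 0.71 with the offset). Nucleoporin genes were higher in 13 and lower in 1 of 20 (median 0.72, 1.03 with the offset). Genes with the stem Rab, which include the small GTPases of that name, were higher in 32 and lower in 12 of 54. Their median of 0.92 was 0.00 with the offset, and genes with the stem Arl had 1.03 and -0.17. A stem followed by a digit was the only rule, so a family can hold genes of other functions.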
